A study of Rattus norvegicus with 28 samples.

Results

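Dnmt3a (ENSRNOG00000026649), Dnmt3b (ENSRNOG00000010625) and Brd3 (ENSRNOG00000007681) are 3 of the 32754 Ensembl genes in the RNA-seq count table, and they were taken by name and identifier. All 3 are listed in a supplementary table of the study that was drawn up in part from these same libraries, while its discussion places their fold changes short of the size it required. Dnmt3a and Dnmt3b encode the de novo DNA methyltransferases and Brd3 encodes a reader of histone acetylation. The RNA came from the dorsal root ganglia (DRGs), which hold the cell bodies of primary sensory neurons with their satellite glia, of male Sprague-Dawley rats aged 12 weeks. For each of the 2 libraries, 1 rat gave its ipsilateral L4 to L6 DRGs. Complete Freund's adjuvant (CFA), a model of inflammatory pain, had been given by hind paw injection 48 h earlier, and only rats that had developed mechanical hypersensitivity were kept. The methods speak both of injecting each hind paw and of an ipsilateral side, so it is not clear whether 1 or both paws were injected. RNA-seq libraries of naïve rats and of rats with a sciatic nerve injury were not analysed here, so the values below are levels after CFA and not responses to it. Chromatin accessibility at these genes was not analysed here either, because no gene annotation of the rn6 build was used.

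De novo methyltransferases place methyl groups on cytosines, mostly in CpG dinucleotides, that were unmethylated on both strands, whereas the maintenance enzyme Dnmt1 copies an existing pattern after replication. Methylation of promoters is commonly associated with silencing, and in DRG neurons Dnmt3a is known for work on the silencing of potassium channel and opioid receptor genes after nerve injury. The product of Brd3 belongs to the bromodomain and extra-terminal (BET) family, whose bromodomains bind acetylated lysines on histone tails and bring transcriptional co-activators to open chromatin.

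The libraries held 10520647 counts on genes in CFA replicate 1 and 28825688 in CFA replicate 2, a depth ratio of 2.74. A single count was worth 0.0951 CPM, the share of a gene in the library total scaled to counts per M, in replicate 1 and 0.0347 CPM in replicate 2. A minimum of 10 counts in each library was met by 15115 genes, over which the chi-square statistic was 6.39 per gene, so the libraries differed by more than repeated counts of 1 library would. The log2 ratio between the libraries had an SD of 0.29 over these genes. All 10 markers of DRG neurons could be paired with a gene, with the highest level at 11580 CPM for Nefm. Their summed level was 43098 CPM in replicate 1 and 45714 CPM in replicate 2. Markers were paired only through the study's supplementary tables, which list genes as differentially expressed in part from these same libraries. A paired marker was therefore bound to have counts, and its detection is no independent check of the tissue. The summed levels in replicates 1 and 2 were 1515 and 1451 CPM for the 6 markers of satellite glia, 4348 and 4170 CPM for the 7 markers of Schwann cells, and 1191 and 1131 CPM for the 5 markers of fibroblasts and vessels. Most of the sum for satellite glia came from S100b, with 1162 and 1127 CPM, and its specificity for these cells was not tested. The summed levels were 149 and 152 CPM for the 2 of 4 markers of immune cells that could be paired with a gene. Of the 5 genes listed for skeletal muscle only Myh6 and Myh7 could be paired, with sums of 14.7 and 10.1 CPM. Myh6 alone gave 13.0 and 7.87 CPM of these, and its specificity for skeletal muscle was not tested. The content of skeletal muscle was therefore not tested either. The DRG holds several cell types, whose shares were not measured here. A bulk level does not tell how many cells expressed a gene from how much RNA each cell held.

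Dnmt3a was detected in both libraries at a moderate level. It had 119 counts in CFA replicate 1, or 11.3 CPM, with an exact Poisson 95% interval of 9.37 to 13.5 CPM. In CFA replicate 2 it had 314 counts, or 10.9 CPM, with an interval of 9.72 to 12.2 CPM. The intervals overlapped almost entirely, and the mean was 11.1 ± 0.296 CPM (SD, n = 2). These intervals cover counting error only and leave out variation between rats and between libraries. Reads amplified by PCR without molecular identifiers are not independent molecules, so the intervals may be too narrow even for counting error. RefSeq, on the GRCr8 build and not the rn6 build of the counts, lists a long non-coding RNA gene, LOC120103494, that overlaps the span of Dnmt3a.

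Dnmt3b, the other de novo methyltransferase, was found at a low level. It had 11 counts in replicate 1, or 1.05 CPM, with an interval of 0.522 to 1.87 CPM. In replicate 2 it had 21 counts, or 0.729 CPM, with an interval of 0.451 to 1.11 CPM. The lower ends of both intervals lie above the level that a count of 0 would have allowed, which is 3 counts, or 0.285 CPM in replicate 1 and 0.104 CPM in replicate 2. The mean was 0.887 ± 0.224 CPM (SD, n = 2). RefSeq also lists a pseudogene, Dnmt3b-ps1, that overlaps the span of Dnmt3b. Reads of similar sequence could have been split between them or lost by the counting, and reads of the pseudogene could have been counted as Dnmt3b. The low level of Dnmt3b is less certain for that reason. The size of any such loss or gain was not tested.

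Brd3 had the highest count of the 3 genes in each library. It had 187 counts in replicate 1, or 17.8 CPM, with an interval of 15.3 to 20.5 CPM. In replicate 2 it had 530 counts, or 18.4 CPM, with an interval of 16.9 to 20.02 CPM. The replicates again overlapped, and the mean was 18.1 ± 0.433 CPM (SD, n = 2). RefSeq lists 2 small RNA genes, Mir7578 and LOC120102083, that overlap the span of Brd3. The kit keeps the strand of the RNA, although the strand setting of the counting is not given in the sources used here.

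**Figure D1:**
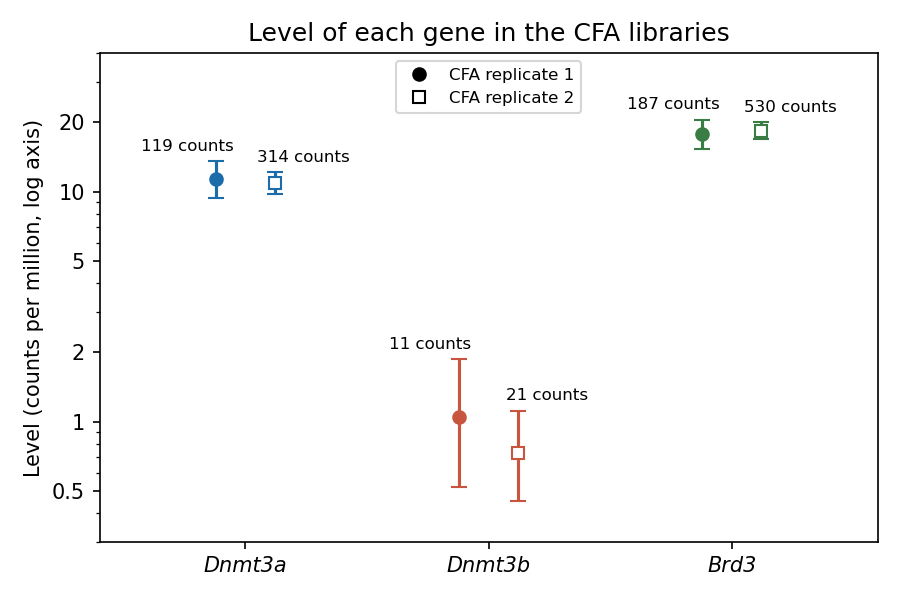
Level of Dnmt3a, Dnmt3b and Brd3 in CPM (vertical axis, log scale) in CFA replicate 1 (filled circles) and CFA replicate 2 (open squares), with exact Poisson 95% intervals as bars and the raw count beside each point. The intervals of the 2 libraries overlap for each gene, and the Dnmt3b points, between 0.729 and 1.05 CPM, carry the widest intervals on the log axis.

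The replicates were then set against each other gene by gene, which compares these 2 libraries and not conditions. Scaled to the depth of replicate 1, the counts of replicate 2 corresponded to 115 counts of Dnmt3a, 7.66 counts of Dnmt3b and 193 counts of Brd3, where 119, 11 and 187 were found. The ratio of the level in replicate 2 to that in replicate 1 was 0.963 for Dnmt3a, with an exact 95% interval of 0.777 to 1.20. For Brd3 it was 1.03, between 0.874 and 1.23. Both ratios lie close to 1, and both intervals include 1.

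The level of Dnmt3b in replicate 2 was 0.697 times that in replicate 1, and the interval ran from 0.321 to 1.60. A difference between the replicates was therefore not detected, and the interval was wide at this depth. The expected counting error of a single count was 30.2% and 21.8% of the value for Dnmt3b in replicates 1 and 2, compared with 9.17% and 5.64% for Dnmt3a and 7.31% and 4.34% for Brd3.

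Genes of a similar level give a measure of how well any gene at that level repeats. Among the 2631 other genes whose mean CPM lay within 1.5 times that of Dnmt3a, the log2 ratio between the replicates had an SD of 0.25, and 80.3% of them differed more between replicates than Dnmt3a, whose log2 ratio was -0.05. For Brd3, with a log2 ratio of 0.05, 80.2% of the 2980 genes of similar level differed more, and the SD was 0.22. For Dnmt3b, with a log2 ratio of -0.52, 45.9% of 1144 genes differed more, and the SD was 0.79. Dnmt3a and Brd3 thus differed less between these 2 libraries than most genes of their level, while Dnmt3b was near the middle of its own. The counting error of the log2 ratio was 0.155 for Dnmt3a, 0.123 for Brd3 and 0.537 for Dnmt3b. Each log2 ratio was smaller in size than this error, so these places cannot be told from counting noise and are no property of the genes.

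**Figure D2:**
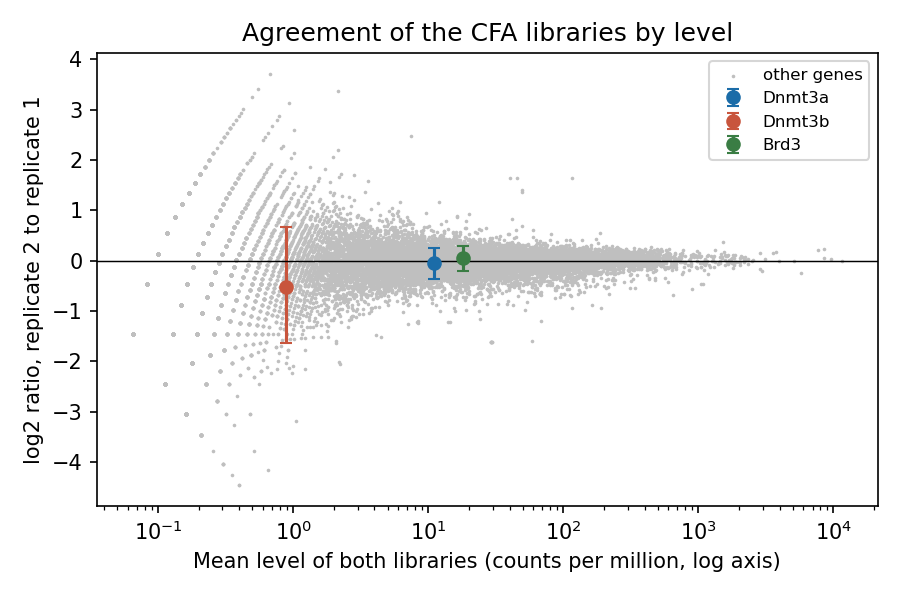
The log2 ratio of the level in CFA replicate 2 to that in CFA replicate 1 (vertical axis) against the mean level in CPM (horizontal axis, log scale) for genes with counts in both libraries (grey), with Dnmt3a, Dnmt3b and Brd3 in colour and exact 95% counting intervals as bars. The spread of the grey points narrows as the level rises, with an SD of 0.79 around the level of Dnmt3b and of 0.22 around that of Brd3.

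The relation of the methyltransferases to each other was taken from their counts within a library, so that depth and scaling have no part in it. There were 10.8 times as many counts of Dnmt3a as of Dnmt3b in replicate 1, with an exact 95% interval of 5.83 to 22.3, and 15.0 times as many in replicate 2, with an interval of 9.61 to 24.5. Dnmt3a thus held 91.5% of the reads of the pair in replicate 1 (exact 95% interval 85.4% to 95.7%) and 93.7% in replicate 2 (90.6% to 96.1%). The ratio was 1.38 times as high in replicate 2 as in replicate 1, with an exact 95% interval of 0.583 to 3.10, so its change between the libraries was within counting error. The mean of the 2 log2 ratios was 3.67 ± 0.33 (SD, n = 2), which is a ratio of 12.7. Dnmt3a drew more reads than Dnmt3b in 2 of 2 libraries, and neither interval came near 1.

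These are ratios of reads. A longer transcript yields more reads per molecule, transcript lengths of the annotation were not used here, and a ratio of molecules can therefore not be given. The same holds for each comparison of 1 gene with another below.

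Brd3 drew 1.57 times as many reads as Dnmt3a in replicate 1, with an interval of 1.24 to 1.99, and 1.69 times as many in replicate 2, with an interval of 1.47 to 1.95. This ratio repeated closely, with a mean log2 value of 0.70 ± 0.07 (SD, n = 2). Against Dnmt3b, Brd3 drew 17.0 times as many reads in replicate 1 and 25.2 times as many in replicate 2, with intervals of 9.29 to 34.6 and 16.3 to 41.1. The order of the read counts was Brd3, then Dnmt3a, then Dnmt3b in each library, and the counting intervals of neighbours in that order did not overlap.

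**Figure D3:**
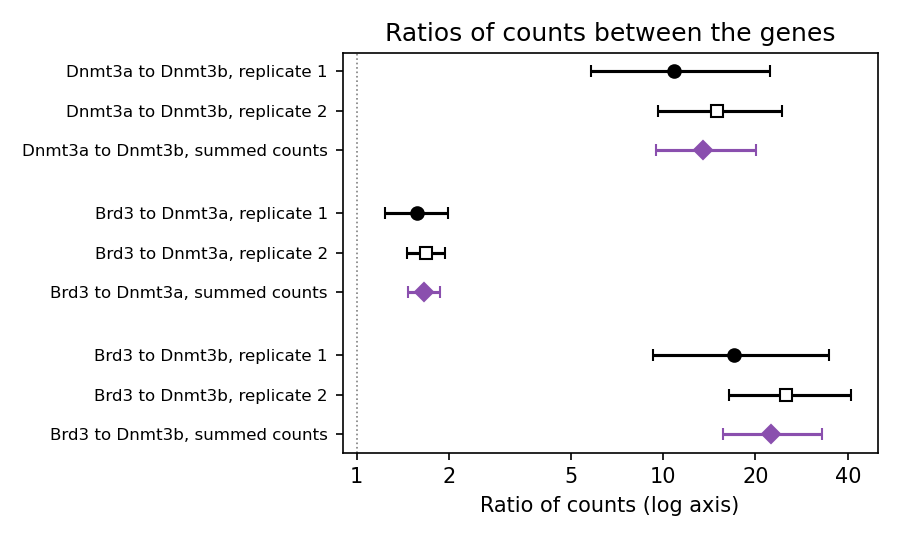
Ratios of read counts (horizontal axis, log scale, with a dotted line at 1) for the 3 pairs of genes in CFA replicate 1 (filled circles), in CFA replicate 2 (open squares) and from the counts summed over both (diamonds), with exact 95% counting intervals. The ratio of Dnmt3a to Dnmt3b lies at 10.8 and 15.0 with broad intervals, and the ratio of Brd3 to Dnmt3a at 1.57 and 1.69 with narrow ones.

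Among the 21122 genes with at least 1 count in either library, ranked from the highest level down, Brd3 took rank 8318 in replicate 1 and 8115 in replicate 2. Dnmt3a took ranks 9908 and 9955.5, the latter shared by genes with the same count, and Dnmt3b took ranks 14922.5 and 15412.5. By their mean level, 61.1% of these genes lay below Brd3, 52.9% below Dnmt3a and 28.2% below Dnmt3b. Many of the genes below had only a few counts. Among the 15115 genes that reached 10 counts in each library, the shares below were 45.6% for Brd3, 34.1% for Dnmt3a and 0.662% for Dnmt3b. Dnmt3b was thus among the lowest genes that passed this minimum, with 11 counts in the shallower library.

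The genes were next placed among other genes of chromatin regulation. A list of 124 such genes was used, of which 42 could be paired with an Ensembl gene, including the 3 described here. The pairing came from the supplementary table named above and from the study's list of regulators. The other 39 genes were therefore selected in the same way and are not a sample of all chromatin genes. Central members of the pathways, among them Dnmt1, the Tet genes and Brd2, could not be paired and were not analysed here. The 39 genes had a median of 14.4 CPM, with quartiles of 8.42 and 27.7 CPM, while the genes that reached 10 counts in each library had a median of 21.4 CPM. Of these 39 genes, 23 lay below Brd3 and 16 above it, and 12 lay below Dnmt3a and 27 above it. All 39 lay above Dnmt3b. The shares below Brd3, Dnmt3a and Dnmt3b were thus 59.0%, 30.8% and 0%. Among all genes with at least 10 counts in each library they were 45.6%, 34.1% and 0.662%. Every paired chromatin gene met that minimum, so the place of Dnmt3b below the 39 is no result about chromatin genes.

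Of the 11 genes listed as writers and erasers of DNA methylation, the only other one that could be paired was Trdmt1, a relative of the methyltransferases by sequence that acts on tRNA. It had 4.85 CPM in replicate 1 and 6.73 CPM in replicate 2, which places it between Dnmt3a and Dnmt3b in both libraries. Of the 12 readers of CpG methylation and CXXC proteins, 2 could be paired. Mbd6, which carries a methyl-CpG binding domain, had 13.99 ± 1.73 CPM (SD, n = 2). Cxxc1, whose product binds unmethylated CpG, had 20.5 ± 0.0471 CPM. Both drew more reads than Dnmt3a in each library.

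Brd3 was the only one of the 4 BET genes that could be paired with an Ensembl gene. The 5 other bromodomain genes had levels from 5.37 CPM for Sp140 to 77.9 CPM for Zmynd11, a reader of methylated histone H3.3, with a median of 26.8 CPM. Baz2a and Baz2b, subunits of chromatin remodelling complexes, had 26.8 ± 0.696 and 33.9 ± 0.757 CPM, and Brpf3, a scaffold of a histone acetyltransferase complex, had 8.15 ± 0.639 CPM. Brd3 thus drew fewer reads than 3 of these 5 genes and more than 2 of them.

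The 7 histone methyltransferase genes ranged from 1.25 CPM for Prdm9 to 63.6 CPM for Kmt2e, with a median of 13.9 CPM. Prdm9, known for its role in meiotic recombination, was the nearest of the 39 genes to Dnmt3b, with 11 counts in replicate 1 and 42 in replicate 2. Ezh2, the catalytic subunit of Polycomb repressive complex 2, had 8.19 ± 0.291 CPM and drew fewer reads than Dnmt3a in each library. Setdb1, which methylates lysine 9 of histone H3, had 32.2 ± 1.61 CPM.

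The remaining lists spanned similar levels. The 3 histone demethylase genes lay between 14.4 CPM for Kdm6b and 39.5 CPM for Kdm4b, and the 7 Polycomb genes between 3.62 CPM for Cbx2 and 27.3 CPM for Cbx7. Those of histone acetylation and deacetylation, 7 in number, lay between 8.65 CPM for Hdac10 and 41.7 CPM for Mta2. The 8 genes of remodelers and histone chaperones lay between 2.04 CPM for Hjurp and 37.1 CPM for Ss18. Daxx, a chaperone of the histone variant H3.3, had 15.5 ± 0.247 CPM.

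Between the replicates, the log2 ratios of the 39 other chromatin genes ranged from -0.50 for Kmt5c to 0.57 for Ubn2, with a median of -0.05 and an SD of 0.24. They were negative in 24 of the 39. Dnmt3a at -0.05 and Brd3 at 0.05 fell in the middle of this range, and Dnmt3b at -0.52 fell just outside its lower end, with a summed count of 32 that is lower than that of any of the 39.

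**Figure D4:**
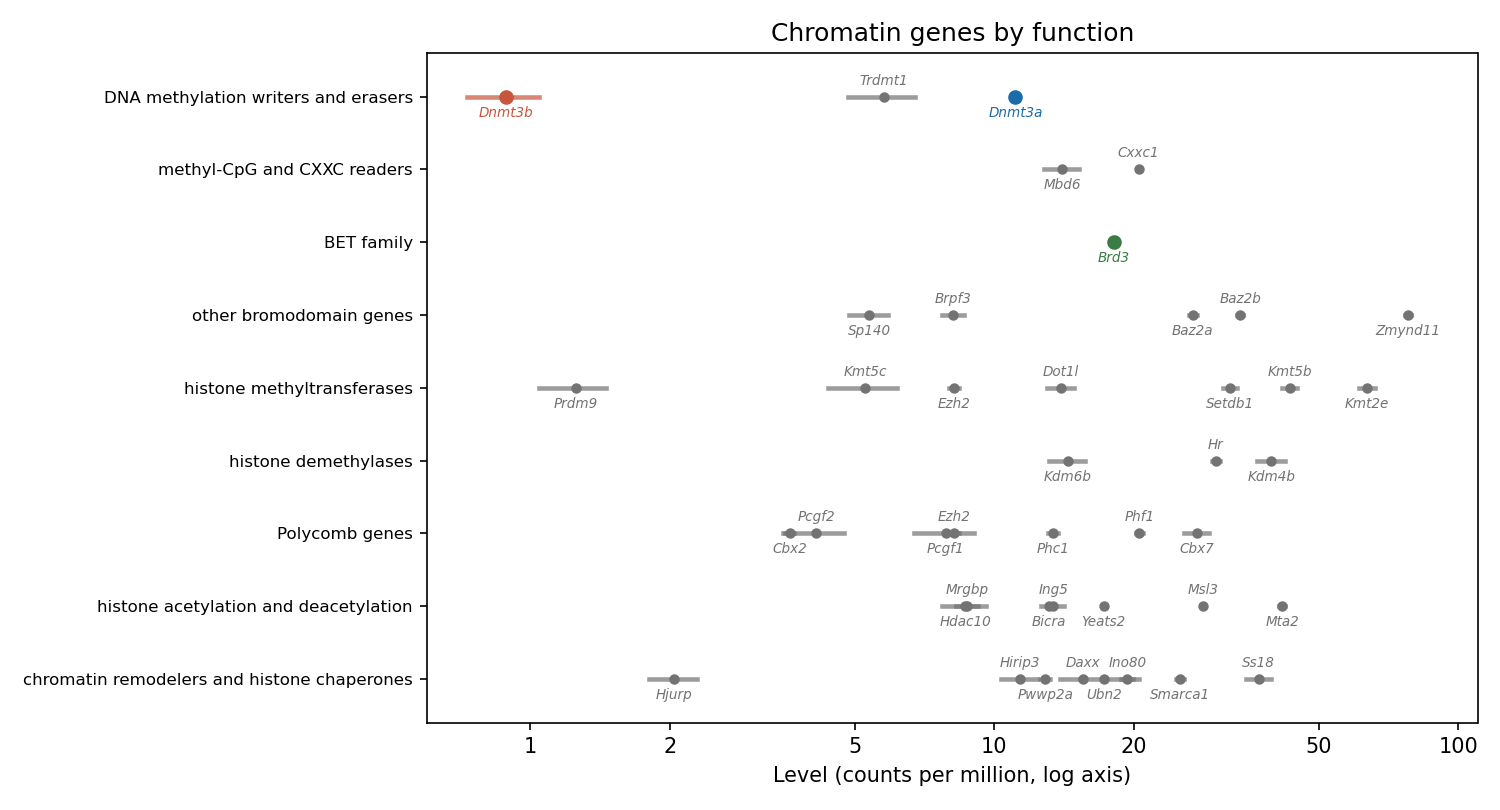
Level in CPM (horizontal axis, log scale) of the 42 chromatin genes that could be paired with an Ensembl gene, by functional list (rows, with Ezh2 in 2 of them), where points give the mean of both CFA libraries and bars join the 2 libraries. Dnmt3b (red) lies at the low end at 0.887 CPM, and Dnmt3a (blue, 11.1 CPM) and Brd3 (green, 18.1 CPM) lie within the range of the other genes (grey).

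None of the 3 genes is among the 186 genes taken from the study's supplementary list of transcriptional regulators. That list holds only regulators selected for their response in both pain models of the study, in part from these same libraries. It is therefore no sample of all regulators, and absence from it does not mean that a gene is no regulator. The study's discussion names all 3 among genes of epigenetic and transcriptional regulation. By their mean levels, 119 of the 186 regulators lay below Brd3 and 92 below Dnmt3a, whose level was close to their median of 11.1 CPM. Only 3 of them lay below Dnmt3b. The shares of regulators below Brd3, Dnmt3a and Dnmt3b were 64.0%, 49.5% and 1.61%. Among genes with at least 10 counts in each library the shares were 45.6%, 34.1% and 0.662%. Among genes with at least 1 count in either library they were 61.1%, 52.9% and 28.2%.

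The genes with the most similar pair of levels were named from 1936 genes with a symbol and at least 10 counts in all, by their distance in log2(CPM + 1) over the 2 libraries. With so few libraries this distance finds genes of equal level and says nothing of joint variation. The nearest to Dnmt3a were Agap2, with 119 and 317 counts, Cspp1 and Bmp6. The nearest to Brd3 were Sox13, with 190 and 520 counts, Kif26b and Kremen1. For Dnmt3b they were Lilrb4, with 11 and 20 counts, Sall1, with 10 and 21 counts, and Rad54l, with 11 and 18 counts. The distances were between 0.01 and 0.09 on the log2 scale.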

How the data were processed

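RNA-seq was analysed in 2 CFA libraries. The authors had selected polyadenylated RNA and used HISAT2 for alignment to rn6. After discarding ribosomal reads they ran featureCounts on Ensembl genes and deposited the raw counts without normalization. Versions and the strand setting are not given in the sources used here. Depth was 10.5 M and 28.8 M counts. Columns were assigned through the sample descriptions. The deposited ATAC-seq tables were not used.

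CPM values are counts over the library total, summarised as the mean ± SD of 2 libraries. Intervals are exact 95% Poisson intervals for counts and exact binomial (Clopper-Pearson) intervals for shares and for ratios of 2 counts. The interval for the change of a ratio between the libraries is the exact conditional interval of an odds ratio. Only 1 group was at hand, so no test between conditions was made. The intervals were tested on simulated Poisson counts, which hold no variation between rats. That test therefore bears on counting error only. Symbols were paired with Ensembl genes through the identifier and symbol columns of the study's supplementary tables (1948 genes), since the RefSeq gene table (GRCr8) shares no Ensembl identifiers with the counts; it was used only for names of overlapping genes. The supplementary fold changes and p-values were not used.

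The 3 genes and the gene lists were chosen with earlier results of these data known. Named genes were the 3 genes, the 3 nearest genes of each, and genes of the lists. Alternatives were TMM scaling (edgeR 4.0.16 in R 4.3.3), median of ratios, upper quartile, a total without the 100 highest genes, a pseudocount of 1, a count minimum of 10, summed counts and leaving out each replicate. Python 3.11.15, scipy 1.17.1 and matplotlib 3.10.9 were used.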

Additional observations from a re-analysis of the deposited data

How the results depend on the processing

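Under the 4 other scalings and the library total, the mean level was 11.1 CPM for Dnmt3a, 0.886 to 0.887 CPM for Dnmt3b and 18.1 CPM for Brd3. The log2 ratio of replicate 2 to replicate 1 lay between -0.05 and -0.03 for Dnmt3a, between -0.52 and -0.24 for Dnmt3b and between 0.05 and 0.07 for Brd3, with the smallest size for Dnmt3b coming from a pseudocount of 1. From summed counts the ratio of Dnmt3a to Dnmt3b was 13.5. With replicate 1 or 2 left out it was 15.0 or 10.8, and with 2 libraries such a value cannot leave the spread between them. Dropping genes under the count minimum removed only genes ranked below Dnmt3a and Brd3, so their unmoved ranks say nothing of stability. The mean rank of Dnmt3b went from 15167.5 to 14943. Ratios per coding length were not run, because no coding lengths were used here. No paired analysis was possible because only 1 group was analysed. The depth of replicate 1 limits Dnmt3b, which rests on 11 counts there.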
